A study of Homo sapiens with 10 samples.

Results

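The genes described here are 6 that encode subunits of the AP-1 transcription factor, JUN, JUNB, FOS, FOSL1, FOSL2 and ATF3, in immortalized human astrocytes (IHA), a fetal astrocyte line immortalised with SV40. CUT&RUN was used to map histone acetylation: a nuclease is guided by an antibody to the chromatin that carries a mark, and the DNA it cuts free is sequenced. Antibodies to H3K9ac, H3K27ac and H4K16ac were each used on cells without doxycycline, labelled as wild type for IDH1, and on cells given doxycycline at 1 µg/ml for 2 days or 7 days, labelled IDH1-R132H. A library made with the HRP secondary antibody alone, from cells without doxycycline, was the control for all 9 antibody libraries. Each mark and time has 1 library, so no difference below has a replicate check, a test or a p-value. The ratios at 2 days and 7 days share the library without doxycycline. Induction of IDH1-R132H cannot be told apart from doxycycline itself or from time in culture, since no sample had doxycycline without the transgene. Whether the line is 1 clone is not given in the sources used here. Astrocyte marker genes could not be placed on the build of the files and were not analysed here.

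Members were the islands, stretches called as enriched over the control, that overlapped each gene's span widened by 10 kb on both sides. These windows on hg19 were chr1:59236001-59260000 for JUN, chr19:12892001-12914000 for JUNB, chr14:75735001-75759000 for FOS, chr11:65649001-65678000 for FOSL1, chr2:28605001-28648000 for FOSL2 and chr1:212728001-212804000 for ATF3. They held 174 of the 778773 islands in the 9 lists. The gene spans themselves were 4 kb for JUN, 2 kb for JUNB, 4 kb for FOS, 9 kb for FOSL1, 23 kb for FOSL2 and 56 kb for ATF3. Exons and introns were not placed, as no hg19 annotation was used.

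AP-1 is a dimer of basic leucine zipper proteins. JUN proteins pair with one another or with FOS proteins, whereas FOS proteins need a JUN partner, and ATF3 can pair with either kind or with itself. Several of these are immediate early genes: JUN, JUNB, FOS and ATF3 are switched on within minutes by growth factors and stress, and in astrocytes FOS is a common sign of recent stimulation. FOSL1 and FOSL2 encode FOS-related proteins that lack the strong activating region of FOS and are made later. Acetylation of H3K27 and H3K9 marks active promoters and enhancers, and acetylation of H4K16 loosens the packing of chromatin. The R132H form of IDH1 makes 2-hydroxyglutarate, which inhibits dioxygenases such as histone demethylases.

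The promoters of JUN, FOS and ATF3 are shown because island reads are given below for the start of each gene, and because promoters of immediate early genes hold sites through which AP-1 and CREB/ATF proteins act. RefSeq promoter sequences on GRCh38.p14, 250 bases before the gene start, were found for 5 of the 6 genes, with a pair of starts for ATF3. FOSL1 was not among them. The JUN sequence lies on the minus strand of chr1:58784048-58784297, the FOS sequence on the plus strand of chr14:75278578-75278827 and the first ATF3 sequence on the plus strand of chr1:212565157-212565406, all on GRCh38.p14 and not on the build of the islands. Capitals mark TGACATCA, and each sequence ends at the base before the gene start.
JUN: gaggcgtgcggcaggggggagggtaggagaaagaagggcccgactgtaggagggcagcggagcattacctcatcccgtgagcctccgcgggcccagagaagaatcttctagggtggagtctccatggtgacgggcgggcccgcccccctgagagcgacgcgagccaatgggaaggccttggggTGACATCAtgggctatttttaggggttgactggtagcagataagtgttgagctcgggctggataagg
FOS: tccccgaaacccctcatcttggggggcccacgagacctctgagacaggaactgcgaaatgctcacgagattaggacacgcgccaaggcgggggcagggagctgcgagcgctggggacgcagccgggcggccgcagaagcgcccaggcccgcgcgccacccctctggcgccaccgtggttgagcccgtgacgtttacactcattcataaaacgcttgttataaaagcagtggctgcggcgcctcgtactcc
ATF3: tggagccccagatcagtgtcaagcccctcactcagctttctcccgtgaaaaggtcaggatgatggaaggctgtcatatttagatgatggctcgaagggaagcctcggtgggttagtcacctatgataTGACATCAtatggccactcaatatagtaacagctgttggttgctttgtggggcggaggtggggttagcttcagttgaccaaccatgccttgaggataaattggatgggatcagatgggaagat

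TGACATCA differs in 1 letter from the cAMP response element TGACGTCA. It lay 67 to 60 bases before the JUN start and 123 to 116 bases before this ATF3 start. It was searched on both strands after the sequences had been read, and 2.37% of 35116 promoters of this length held it. None of the 6 member promoters held TGANTCA, the TPA response element bound by AP-1 (6.57% of all promoters), TGACGTCA (1.65%) or the CArG box bound by SRF (1.16%). The motifs do not overlap one another as spelled, and a miss says only that these letters are not in these 250 bases. The GC content was 62% for JUN, 64.8% for FOS, 70.8% for JUNB and 69.6% for FOSL2, against a median of 58% over all promoters. The ATF3 promoters were lower, at 49.2% and 44.8%.

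Library sizes, expressed as multiples of the HRP control, did not move alike with time. In the order no doxycycline, 2 days and 7 days, they were 3.05, 4.17 and 4.88 for H3K9ac. For H3K27ac they were 3.98, 3.15 and 1.49, and for H4K16ac 2.53, 3.08 and 7.88. The lists held 52044 to 110234 islands and 4209773 to 18664203 antibody reads. Read counts were divided by these sizes, and no spike-in is named, so a shift of a mark over the whole genome cannot be told apart from library size. Island number did not follow size: the H3K27ac library at 7 days was the smallest and its list, with 84641 islands, the longest of that mark. The part of library size in the results was not tested. Intervals are exact Clopper-Pearson intervals at 95% and cover counting error only. Reads amplified by PCR and not tagged with molecular identifiers are not separate molecules.

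The 6 AP-1 genes lay in densely H3-acetylated chromatin at every time, and H4K16ac covered far less of their windows than either H3 mark. H3K27ac islands covered 62.8% of the windows without doxycycline, 59.4% at 2 days and 48.0% at 7 days, against 10.1%, 8.47% and 7.31% of chromosomes 1 to 22 and X. H3K9ac islands covered 49.0%, 49.8% and 52.9% of the windows, against 10.3%, 10.8% and 12.3% of the chromosomes. H4K16ac covered 17.7%, 6.70% and 19.9% of the windows, where the chromosomes had 9.11%, 11.02% and 19.3%. The H4K16ac cover of the windows was therefore above that of the chromosomes without doxycycline, below it at 2 days and near it at 7 days. H3K27ac cover was lowest in the smallest library. Windows around genes are not a sample of the genome, so these shares describe the windows and are not a comparison with other genes.

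**Figure D1:**
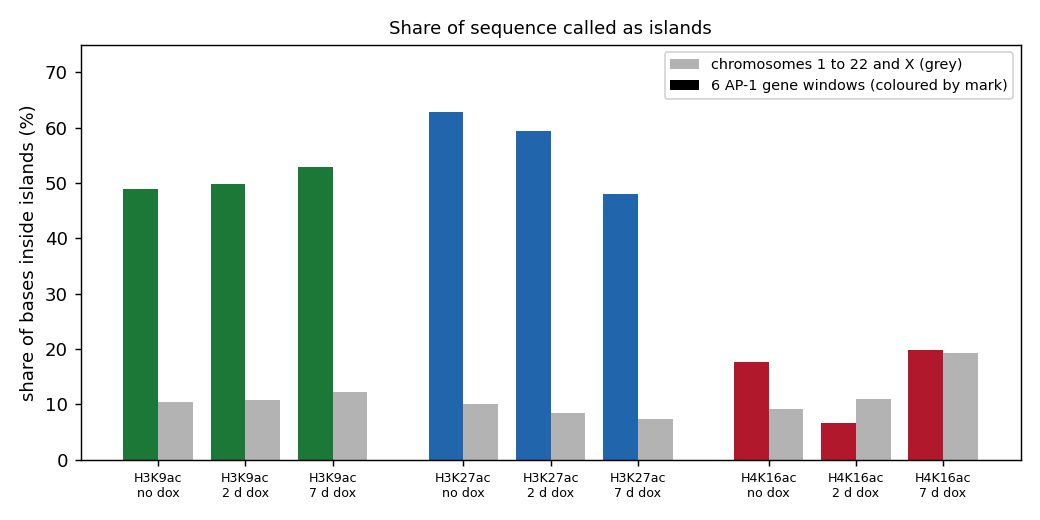
Share of bases inside islands (%) for each mark and time, with coloured bars for the 6 AP-1 gene windows and grey bars for chromosomes 1 to 22 and X; each bar is 1 library. The H3K9ac and H3K27ac bars stand far above grey at all times, and the H4K16ac bar drops to 6.70% at 2 days, under the grey 11.02%.

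**Figure D2:**
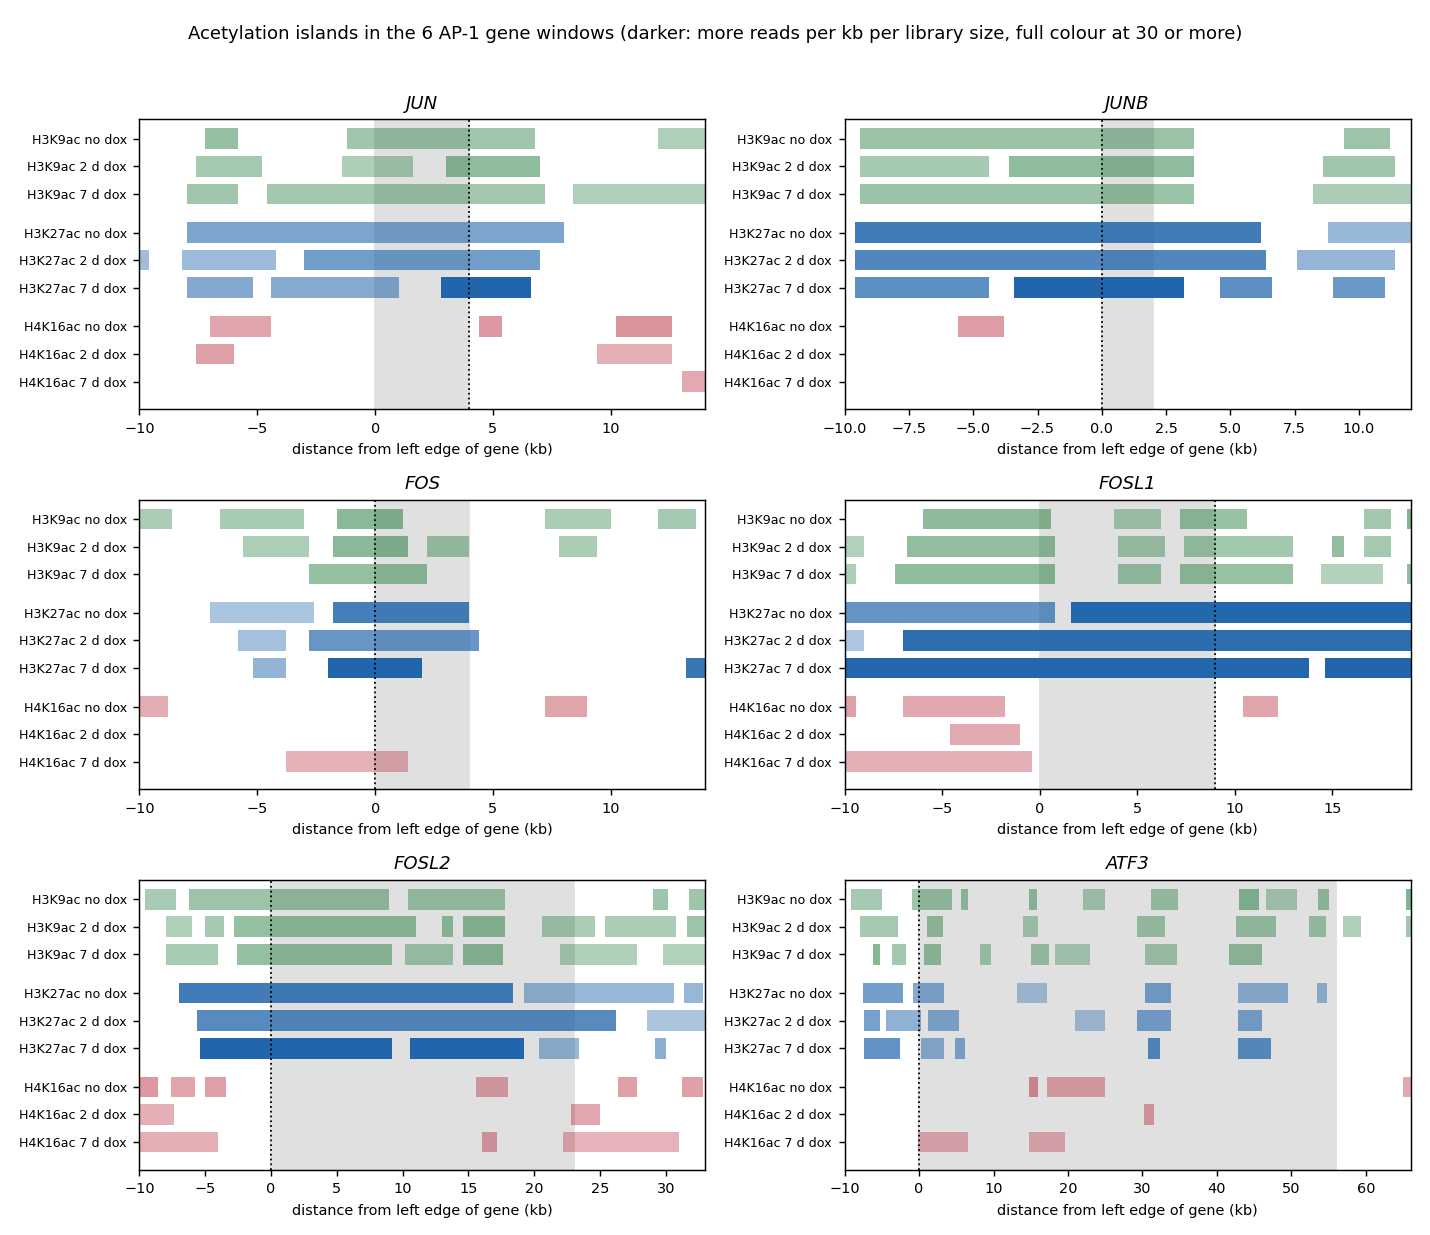
Islands of each library in the 6 windows, by distance from the left edge of the gene in kb; grey marks the gene span, the dotted line the edge where the gene starts, and darker colour more reads per kb per relative library size. H3K9ac and H3K27ac islands lie on or within 1 kb of the start edge of all 6 genes in every library, whereas JUNB has no H4K16ac island with doxycycline.

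On or within 1 kb of the starts of the genes, both H3 marks were present throughout. The start is taken as the edge of the gene span, so for ATF3 the second RefSeq start is not covered by these values. An island within 1 kb of the start edge was found for all 6 genes in all 3 H3K9ac and all 3 H3K27ac libraries. At ATF3 the H3K9ac islands with doxycycline did not cover that edge, beginning 1.0 kb inside it at 2 days and 0.6 kb at 7 days. The ATF3 H3K27ac island at 7 days began 0.2 kb inside it. H4K16ac came within 1 kb of a start in few cases: at JUN without doxycycline, at none of the 6 at 2 days, and at FOS and ATF3 at 7 days. The JUN island held 19 reads over 1.0 kb and no HRP read. The FOS island held 135 reads with 13 HRP reads, 1.32-fold over the scaled control in the authors' deposited table. The ATF3 island held 174 reads with 8 HRP reads, 2.76-fold over the control in the authors' deposited table. These islands came from the smallest and the largest H4K16ac library, and the lowest island count passing the caller was 11 reads in the first and 33 in the last.

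The density of H3K27ac at the gene starts, in reads per kb per relative library size, separated the genes. JUNB had 24.4 before induction, 21.3 at 2 days and 59.1 at 7 days. For JUN it was 13.5, 15.6 and 37.2, and for FOS 23.5, 17.3 and 39.1. At 7 days the start islands of these 3 genes were shorter, 6.6 kb for JUNB against 15.8 kb without doxycycline, 3.8 kb for JUN against 16 kb and 4.0 kb for FOS against 5.8 kb, so the density is that of a narrower stretch. FOSL2 had 24.2, 20.3 and 34.1. FOSL1 stayed between 27.7 and 29.9, and ATF3 between 10.3 and 12.1. Genes with broad islands and genes with narrow ones were thus measured over unequal lengths, and a density over called sequence depends on what was called. H3K27ac reads per kb also rose over the list as a whole. Over all regions compared the median log2 ratio per kb was 0.14 at 2 days and 0.46 at 7 days. Over the regions at these genes it was -0.018 and 0.59.

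Over whole genes, H3K27ac was slightly lower at 2 days and, at JUNB, FOSL1 and FOSL2, higher at 7 days. Here the reads of all regions touching a window were summed, a region being islands of 1 mark that overlap or abut across its 3 libraries. At 2 days the log2 ratio was below 0 in 6 of 6 genes, with a median of -0.11, beside a median of -0.13 (quartiles -0.36 and 0.069) over all 40421 regions compared. The genes thus sat where the list as a whole sat. At 7 days the median over the genes was 0.23, with 4 genes above 0 and 2 below, beside -0.17 (quartiles -0.55 and 0.17) over 36775 regions. JUNB and FOSL1 lay above the upper quartile of all regions, FOSL2 lay below it with an interval above 0, and the intervals of JUN and ATF3 held 0. FOS lay above the quartile at 0.36 only through a region that reached its window in the 7-day library alone. Over regions lying in the window in every library that had them, FOS was 0.086, JUN 0.15 and the median 0.15. Regions rich in reads gave a similar background: over the 6369 regions with at least 500 reads without doxycycline the median at 7 days was -0.14, and 6 of the 7 such regions at these genes lay above it. At 2 days that median was -0.094 and 2 of the 7 lay above it.

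**Figure D3:**
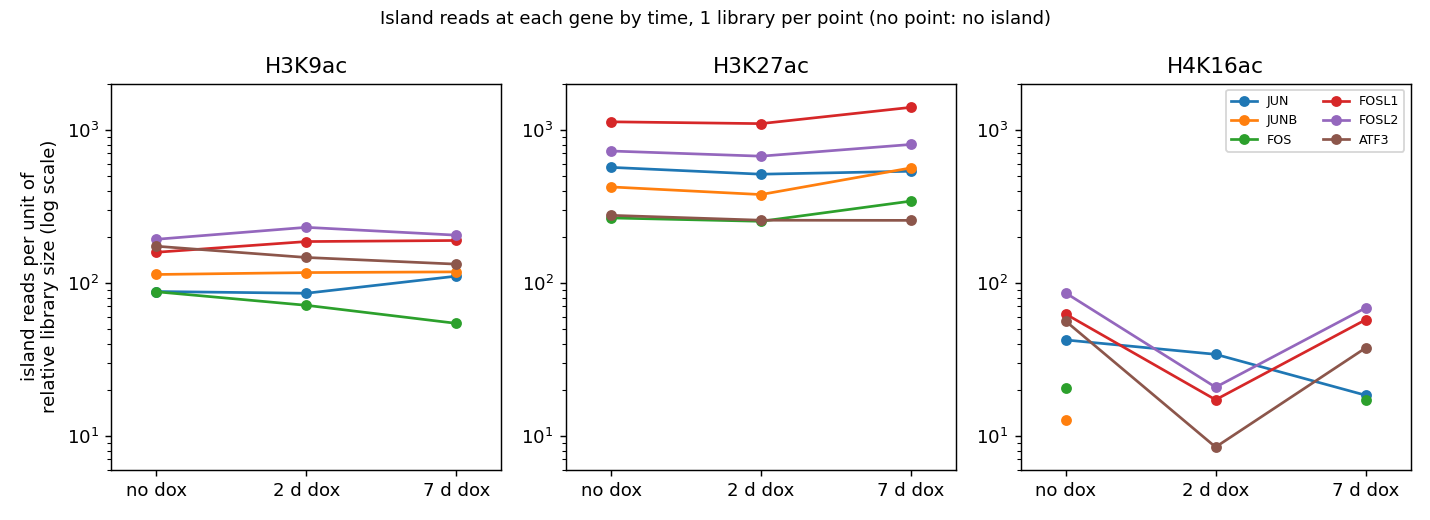
Summed island reads per unit of relative library size (log axis) for each gene against time, 1 panel per mark and 1 library per point, with no point where no island was called. H3K27ac lines are nearly flat with an upward end for JUNB, FOS and FOSL1, and H4K16ac points of FOSL1, FOSL2 and ATF3 dip at 2 days.

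**Figure D4:**
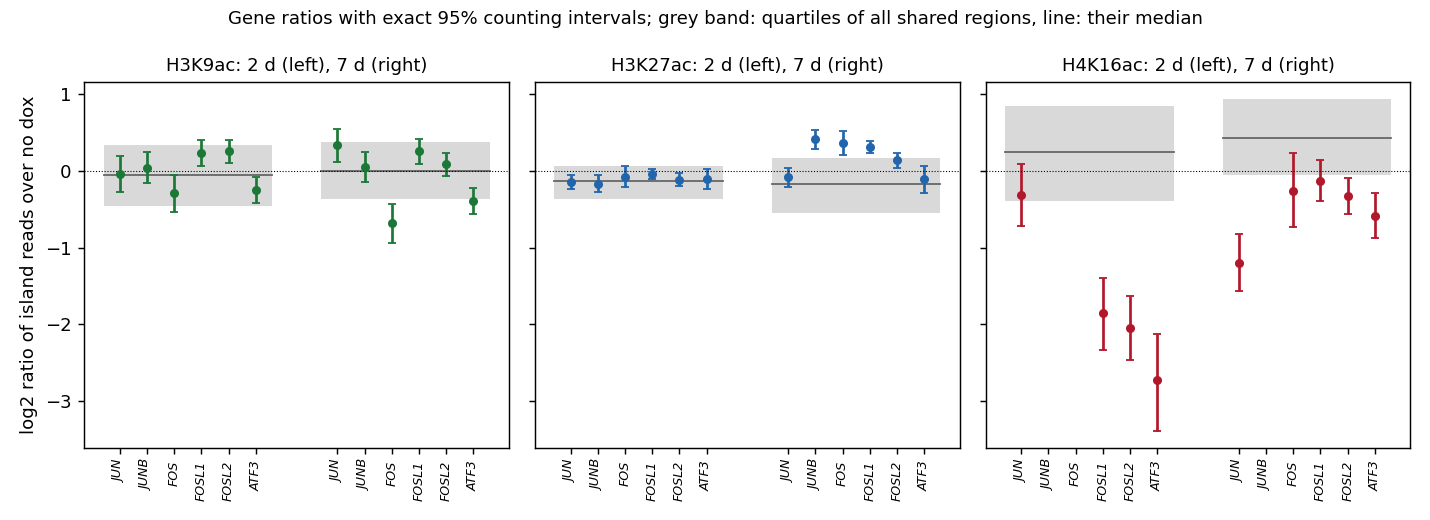
Log2 ratio of island reads over the library without doxycycline for each gene, with exact 95% counting intervals as bars, at 2 days (left of each panel) and 7 days (right); the grey band and line are the quartiles and median of all regions compared. In H4K16ac, FOSL1, FOSL2 and ATF3 lie near -2 or lower at 2 days, the ATF3 value setting different stretches side by side. The H4K16ac values of JUN and FOS at 7 days do the same. In H3K27ac, JUNB, FOS and FOSL1 lie above the band at 7 days, FOS through a region that enters its window in the 7-day library alone.

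JUN encodes the founding member of AP-1 and its main partner for FOS proteins. Its H3K27ac islands held 2258 reads without doxycycline, 1611 at 2 days and 798 at 7 days, or 567, 512 and 535 per relative library size. After scaling, the 3 values lay within a narrow span. The log2 ratio was -0.15 (-0.24 to -0.055) at 2 days and -0.084 (-0.20 to 0.033) at 7 days. Most of these reads came from a region that touches the window in the 2-day library alone, chr1:59214201-59236400, beyond the end of the gene, with 1396, 1022 and 440 reads. The region over the gene itself, chr1:59237801-59254000, had 862, 589 and 358 reads, a log2 ratio of -0.21 (-0.36 to -0.058) at 2 days and 0.15 (-0.033 to 0.33) at 7 days. At 7 days the interval of the gene region thus held 0. The distal region lay below the library without doxycycline, at -0.25 (-0.41 to -0.094).

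H3K9ac at JUN amounted to 267, 356 and 539 reads, with log2 ratios of -0.038 (-0.27 to 0.20) at 2 days and 0.33 (0.12 to 0.55) at 7 days. The 7-day excess went with longer islands, 19.8 kb against 15.0 kb, and per kb of island the log2 ratio was -0.067. Its richest region was chr1:59241401-59253200 over the gene, with 162, 215 and 352 reads. H4K16ac at JUN held 107, 105 and 145 reads, 42.3, 34.0 and 18.4 per relative library size, so the value was lowest at 7 days. The log2 ratios were -0.31 (-0.71 to 0.090) and -1.20 (-1.57 to -0.83), and -0.65 and -0.61 per kb. All 145 reads at 7 days and 35 of the 105 at 2 days came from chr1:59259001-59264000. That region touched the window in the 7-day library alone. No JUN region had an H4K16ac island both without doxycycline and at 7 days, so the 7-day value sets sums over different stretches side by side, and with stricter islands (FDR of at most 0.001, fold over control of at least 2) the 2-day value was 0.26. The island of 35 reads without doxycycline at chr1:59239001-59241600, at 1.73-fold, missed that filter. The 2-day island there passed it, at 2.14-fold. The H4K16ac region richest without doxycycline, chr1:59255401-59258600 upstream of the start, had 53 reads, 37 at 2 days and no island at 7 days, while chr1:59259001-59264000, a little further out, had no island, then 35 reads and 145 reads. The islands on that side within the window had no HRP read, so their fold over control in the authors' deposited table rests on the value entered for a count of 0.

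JUNB encodes a JUN protein with weaker activating power than JUN. Its H3K27ac islands held 1682, 1186 and 839 reads, or 423, 377 and 563 per relative library size, lowest at 2 days and highest at 7 days. As log2 ratios this was -0.17 (-0.27 to -0.057) at 2 days and 0.41 (0.29 to 0.53) at 7 days, a fold of 1.33 and the highest of the 6 genes. Nearly all of it lay in chr19:12892401-12908600, which covers the gene, with 1534, 1075 and 789 reads. That region was 1 island of 15.8 kb without doxycycline and 1 of 16 kb at 2 days, and at 7 days it was split into 3, the middle one of 6.6 kb with 582 reads. H3K9ac at JUNB gave 345, 486 and 575 reads and log2 ratios of 0.042 (-0.16 to 0.25) and 0.057 (-0.14 to 0.25), so both intervals held 0. Most of it lay in chr19:12892601-12905600, over the gene, with 304, 409 and 485 reads. H4K16ac was seen only without doxycycline, in 1 island of 32 reads at chr19:12896401-12898200. At an unchanged density 39.0 reads would have been counted there at 2 days and 99.6 at 7 days, above the lowest island counts of 14 and 33 in those lists. The window also takes in HOOK2, PRDX2 and THSD8 by RefSeq gene order, so islands in it may belong to those genes.

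FOS encodes the immediate early partner of JUN. Its H3K27ac islands held 1055, 793 and 509 reads, or 265, 252 and 341 per relative library size, with the 7-day value on top. In log2 terms the ratio was -0.073 (-0.21 to 0.061) at 2 days and 0.36 (0.21 to 0.52) at 7 days. The region over the gene, chr14:75738001-75749400, had 636, 432 and 253 reads and log2 ratios of -0.22 (-0.40 to -0.041) and 0.086 (-0.13 to 0.30), so over the gene the 7-day interval held 0. The rest came from chr14:75758201-75764800, 13.2 to 19.8 kb from the left edge, with 419, 361 and 256 reads. That region belongs to the window only through its 7-day island, the widest of the 3, and its 7-day log2 ratio of 0.71 supports nothing about FOS. By RefSeq gene order JDP2, which encodes a bZIP repressor that pairs with JUN proteins, is the next gene on that side.

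In H3K9ac, FOS was the lowest of the 6 genes at 7 days. The islands held 266, 297 and 265 reads, or 87.2, 71.2 and 54.3 per relative library size, lower at each later time. These are log2 ratios of -0.29 (-0.54 to -0.049) and -0.69 (-0.94 to -0.43). The sums include chr14:75732601-75736400, which touched the window only in the library without doxycycline. Over regions lying in the window in every library that had them, the log2 ratios were -0.14 and -0.73. The called length shortened from 14.2 kb to 10.0 kb and 6.8 kb, and per kb the log2 ratios were 0.21 and 0.38, of the opposite sign. Without the 10 kb on each side they were 0.22 and -0.18. The gene region chr14:75738401-75749000 kept 149, 238 and 211 reads with log2 ratios of 0.22 and -0.18, whereas 2 downstream regions had no island at 7 days. H4K16ac at FOS was 52 reads in 2 islands without doxycycline, none at 2 days and 135 reads in 1 island at 7 days, per relative library size 20.5 and 17.1. The islands were not in the same place: chr14:75733801-75736200 and chr14:75752201-75754000 flanked the gene at first, with 26 reads each, and chr14:75741201-75746400 at 7 days spanned its start. The 7-day log2 ratio of the sums, -0.26 (-0.73 to 0.23), thus sets different stretches side by side. For each flanking region 31.7 reads would have been counted at 2 days and 80.9 at 7 days at an unchanged density.

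FOSL1 encodes FRA-1, a FOS protein linked to cell migration and mesenchymal traits. It had the most H3K27ac of the 6 genes, 4482, 3448 and 2087 reads in chr11:65643801-65691000, or 1126, 1096 and 1399 per relative library size. Per kb of island the levels were 25.4, 26.2 and 34.0, and JUNB alone was higher per kb at 7 days, with 35.6. The log2 ratio was -0.040 (-0.10 to 0.025) at 2 days and 0.31 (0.24 to 0.39) at 7 days. The island over the gene start was 28.4 kb wide without doxycycline, rank 505 of 52044 by width in its own list and rank 76 by reads. At 2 days 1 island of 39.0 kb with 3406 reads was found, rank 70 of 59549, and at 7 days one of 25.4 kb with 1132 reads, rank 60 of 84641. Ranks within lists of unequal length show no change between times, only that the domain was among the widest each time. CTSW, FIBP, CCDC85B and C11orf68 neighbour FOSL1 by RefSeq gene order, and a domain of this width may cover some of them.

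H3K9ac at FOSL1 held 482, 775 and 922 reads, with log2 ratios of 0.23 (0.067 to 0.40) and 0.26 (0.095 to 0.42). Per kb the ratios were -0.22 and -0.072, since called length was 19.6 kb, 26.8 kb and 24.6 kb. Over regions lying in the window in every library that had them, the log2 ratios were 0.22 and 0.41. The richest region, chr11:65651601-65659800, lay at the end of the gene away from its start, with 201, 288 and 377 reads. H4K16ac at FOSL1 held 158, 53 and 451 reads, or 62.4, 17.2 and 57.2 per relative library size, low at 2 days and back near the starting value at 7 days. That gave log2 ratios of -1.86 (-2.34 to -1.40) at 2 days and -0.12 (-0.39 to 0.15) at 7 days. Called length followed the same course, 11.8 kb, 3.6 kb and 15.4 kb, and per kb the 2-day log2 ratio was -0.15. No H4K16ac island lay within the span of the gene at any time.

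FOSL2 encodes FRA-2, the other FOS-related protein. Its H3K27ac, all in chr2:28608001-28648600, held 2888, 2113 and 1194 reads, or 726, 671 and 801 per relative library size. The log2 ratio was -0.11 (-0.19 to -0.031) at 2 days and 0.14 (0.044 to 0.24) at 7 days, on opposite sides of 0. The island over the start was 25.4 kb wide without doxycycline, 31.8 kb at 2 days and 14.6 kb at 7 days. H3K9ac held 586, 960 and 999 reads, with log2 ratios of 0.26 (0.11 to 0.41) and 0.090 (-0.059 to 0.24). With the stricter islands they were 1.55 and 1.11. The start island without doxycycline, with 346 of the 586 reads, missed that filter at 1.99-fold over control. The start islands at 2 days and 7 days passed it, at 2.49-fold and 2.21-fold. The main H3K9ac region of FOSL2, chr2:28605401-28632800, was near its starting level throughout, with 530, 716 and 826 reads and log2 ratios of -0.019 and -0.040. A flanking one, chr2:28635601-28648600, had 56, 244 and 173 reads and log2 ratios of 1.67 (1.25 to 2.12) and 0.95 (0.50 to 1.41). Per kb those were -0.44 and -0.94, so in that region more sequence was called, at a lower density.

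H4K16ac at FOSL2 held 217, 64 and 539 reads, or 85.7, 20.8 and 68.4 per relative library size, lowest at 2 days as at FOSL1. The ratio on the log2 scale was -2.05 (-2.47 to -1.64) at 2 days and -0.33 (-0.56 to -0.091) at 7 days, and -0.57 and -0.77 per kb. The 7-day direction turned without the 10 kb on each side, to 0.75, and the 2-day value was then -0.91. With the stricter islands the 7-day value was -1.10. The 7-day island of 224 reads at chr2:28637201-28646000, at 1.35-fold over control, did not pass that filter. Upstream of the start, chr2:28601001-28611600 had 137, 29 and 257 reads and log2 ratios of -2.52 (-3.16 to -1.94) and -0.73. At the far end of the gene, chr2:28637201-28646000 had 23, 35 and 224 reads and log2 ratios of 0.32 and 1.65 (1.02 to 2.33), the latter -1.01 per kb. The 2 flanks of the gene thus went opposite ways at 7 days in summed reads and the same way per kb.

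ATF3 encodes a stress-induced AP-1 and CREB family protein that often represses its targets. Its H3K27ac islands held 1097, 806 and 381 reads, or 276, 256 and 256 per relative library size, the lowest H3K27ac per kb of the 6 genes at 10.9, 11.2 and 16.6. The log2 ratios were -0.11 (-0.24 to 0.027) and -0.11 (-0.28 to 0.060), and 0.28 at both times with the stricter islands. The island of 259 reads without doxycycline, at 1.91-fold over control, missed that filter. The islands there at 2 days and 7 days passed it, at 3.28-fold and 3.41-fold. The richest region covered the start, chr1:212730401-212744200, with 531, 411 and 204 reads and ratios near 0, -0.031 and 0.036. Inside the gene, chr1:212780801-212787600 had 259, 134 and 127 reads and log2 ratios of -0.61 and 0.39. H3K9ac at ATF3 held 528, 610 and 646 reads, with log2 ratios of -0.24 (-0.41 to -0.073) and -0.39 (-0.56 to -0.22), below 0 at both times, and with the stricter islands the 2-day value was -1.26. That filter dropped H3K9ac islands both without doxycycline and at 2 days. The region at the start edge, chr1:212737001-212742400, had 116, 69 and 98 reads and log2 ratios of -1.20 (-1.65 to -0.76) and -0.92 (-1.33 to -0.52). Per kb those were 0.093 and 0.25, so a shorter stretch was called at a like density. The richest H3K9ac region, chr1:212779601-212788800 inside the gene, had 132, 151 and 169 reads. The second RefSeq promoter of ATF3, chr1:212614768-212615017 on GRCh38.p14, lies far to the right of the first and was not placed on hg19. The H3K27ac and H3K9ac regions named here as inside the gene may reach it or lie near it. By RefSeq gene order GARIN4 lies within 10 kb of ATF3 on the right, so islands at that end of the window may belong to GARIN4.

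H4K16ac at ATF3 was called in different places at each time. The islands held 142, 26 and 295 reads over 10.6 kb, 1.4 kb and 11.6 kb, or 56.1, 8.43 and 37.4 reads per relative library size. The 2-day island, chr1:212768201-212769600, lay where none was called without doxycycline, and no region had an island at both of these times. The log2 ratio of the sums, -2.73 at 2 days, thus sets different stretches side by side. At 7 days it was -0.58 (-0.88 to -0.28). The intragenic region chr1:212752801-212763000 had 122 reads, no island at 2 days, where 149 would have been counted at an unchanged density, and 121 reads at 7 days with a log2 ratio of -1.65 (-2.02 to -1.27). An island at the gene start, chr1:212737801-212744600, was found at 7 days alone.

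Over the genes as a list, summed H4K16ac reads were lower with doxycycline. A region without an island at the later time lowers a gene's sum but has no part in the median over all regions, so these are not like for like. At 2 days the 4 genes with islands at both times had a median log2 ratio of -1.95 and all 4 lay below 0, beside a median of 0.24 (quartiles -0.39 and 0.84) over 28835 regions. At 7 days 5 genes had a value, all below 0 with a median of -0.33, beside 0.43 (quartiles -0.047 and 0.94) over 47412 regions. ATF3 at 2 days and JUN and FOS at 7 days had no region called at both times of the comparison. Their values set different stretches side by side. Per kb of island the gene medians were -0.36 and -0.61, beside -0.20 and -0.58 over all regions, so most of the contrast was in how much sequence was called. Over regions called at both times, 3 genes had a value at 2 days: -0.61 for JUN, -1.61 for FOSL1 and -1.61 for FOSL2. At 7 days the same restriction gave 0.12 for FOSL1, -0.14 for FOSL2 and -1.65 for ATF3. For H3K9ac the gene medians were 0.0021 at 2 days and 0.073 at 7 days, beside -0.053 and 0.0036 over all regions, with 3 and 4 of the 6 genes above 0.

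Counted by region, few passed a 2-fold difference, a threshold applied to regions called at both times of a comparison and holding 50 reads or more in one of them. In H3K9ac at 2 days 1 of 19 regions at the genes was at least 2-fold higher, the flank of FOSL2, beside 5.73% of all regions, and 1 of 19 at least 2-fold lower, the start of ATF3, beside 9.63%. One further region, at FOSL1, chr11:65643601-65650000, came just short of 2-fold higher, with a log2 ratio of 0.995. That region touched the window in the libraries with doxycycline but not in the one without, so its rise supports nothing about FOSL1. At 7 days 0 of 20 H3K9ac regions were higher (6.42% of all) and 0 of 20 lower (6.28% of all). In H3K27ac at 2 days 0 of 11 were higher (0.480% of all) and 0 of 11 lower (3.55% of all). At 7 days 0 of 11 were higher (1.53% of all) and 0 of 11 lower (9.07% of all). These H3 counts are too small to be set apart from their backgrounds.

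In H4K16ac the counts rest on few regions. At 2 days 0 of 3 were at least 2-fold higher, beside 20.0% of all regions, and 2 of 3 lower, at FOSL1 and FOSL2, beside 10.7%. At 7 days 1 of 5 was higher, the far end of FOSL2, beside 22.9%, and 1 of 5 lower, within ATF3, beside 2.38%. The FOSL1 region, chr11:65643201-65658600, had 133, 53 and 451 reads and log2 ratios of -1.61 (-2.10 to -1.14) and 0.12.

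Some regions called without doxycycline had no island later. Of 14 H4K16ac regions present without doxycycline, 9 had no island at 2 days and 9 had none at 7 days, beside 45.7% and 35.2% of all such regions. For H3K9ac it was 3 of 26 at 2 days and 5 of 26 at 7 days, beside 26.9% and 28.2%. For H3K27ac it was 2 of 13 at each time, both within ATF3, beside 12.2% and 19.9%. In all 3 libraries of a mark islands were found for 20 of 28 H3K9ac regions, 11 of 14 H3K27ac regions and 3 of 18 H4K16ac regions. That is 71.4%, 78.6% and 16.7%, beside 37.1%, 44.1% and 30.3% of all regions of these marks. The regions set beside them were not matched for width or reads. A missing island is not a count of 0, since reads below the caller's limit are not listed.

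The marks shared sequence to an unequal extent. Without doxycycline 81.1% of the H3K9ac bases in the windows lay inside H3K27ac islands, then 83.4% at 2 days and 68.6% at 7 days, beside 54.4%, 45.5% and 35.2% over the whole lists. Seen from the other mark, 63.3%, 70.0% and 75.7% of the H3K27ac bases lay inside H3K9ac islands, beside 55.7%, 58.1% and 59.4%. Of the H4K16ac bases at these genes 57.5%, 60.3% and 51.2% lay inside H3K27ac islands, beside 32.4%, 24.9% and 19.1% over the lists. H4K16ac bases inside H3K9ac islands made up 60.1%, 61.6% and 71.4%, beside 41.1%, 43.7% and 43.6%. All 4 shares exceeded those of the whole lists at every time, in windows that the H3 marks cover more densely than the chromosomes. H3K27ac islands covered 62.8%, 59.4% and 48.0% of the windows, so the share of H4K16ac bases inside them was near that cover. The other shares lay above the window cover of the outer mark, which for H3K9ac was 49.0%, 49.8% and 52.9%.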

How the data were processed

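Island lists were used for 9 antibody libraries of H3K9ac, H3K27ac and H4K16ac; the HRP control of the 10 samples enters through its reads in those lists. SICER and Bowtie2 2.3.5.1 are named, with hg19 as the build and with deepTools, Picard, FastQC and cutadapt, per the submitters' processing notes. Their settings, and how duplicate reads were handled, were not given in the sources used here. Per the file headers and labels, the authors called each list on 1 library against the HRP control. The deposited columns give, per island, an antibody and an HRP read count, not normalised, a p-value and FDR, a log2 fold over the scaled control, and a score, which was 100 times that log2 fold. P-values and scores were used only to describe or filter islands.

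The constant between the count ratio and the deposited log2 fold gives the size of each library relative to that of the control. Islands of a mark's 3 lists that overlapped or abutted were merged into regions. The antibody reads of all islands of regions touching a window were summed, divided by relative size and compared with the library without doxycycline, with an exact interval at 95% of the count ratio. A region can reach outside its window, and some touched it in 1 library only. A 2-fold difference was counted among regions called at both times and holding 50 reads or more in one of them. Reads per kb of island stand beside sums, since a sum grows with the sequence called. Expected reads assume an unchanged density after scaling. Coordinates are 1-based, and islands not on chromosomes 1 to 22 or X (1 in all) were dropped. Computation used Python 3.11.15, numpy 2.4.6, pandas 2.3.3 and scipy 1.17.1, and the region and ratio code was tested on simulated data.

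All 6 genes are named in each mark, with the region richest in reads without doxycycline and every region past 2-fold. Members and lists were chosen with earlier results of these data known. The reach of 1 kb around gene starts, the cover and overlap shares, the regions of at least 500 reads and the motif TGACATCA were chosen after the data had been seen. JUND, FOSB, BATF, BATF3, ATF2 and MAF were not analysed here, because their hg19 positions were not at hand. Alternatives were 2 other scalings, reads apportioned to the window, windows without the widening, islands with an FDR of at most 0.001 and a fold of at least 2, reads per kb, control reads subtracted, and no minimum of reads. Sums over regions called at both times, and over regions lying in the window in every library that had them, were added after the data had been seen.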

Additional observations from a re-analysis of the deposited data

Results flagged for a closer look

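At 2 genes the H3K27ac value lay on opposite sides of the library without doxycycline at the 2 times, with intervals that did not hold 0. For JUNB the log2 ratio was -0.17 at 2 days and 0.41 at 7 days. For FOSL2 it was -0.11 at 2 days and 0.14 at 7 days. With all shared regions centred on 0, FOSL2 lay above 0 at both times, at 0.014 and 0.31, and JUNB was -0.039 at 2 days; scaled by summed island reads the 2-day values were -0.0086 and -0.062. The difference between the times was not tested, since each time has 1 library, and both ratios share the library without doxycycline. The H3K27ac library at 7 days was 0.375 times the size of that library, and its part in the result was not tested.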

How the results depend on the processing

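No paired analysis was possible because each mark and time has 1 library. For a median over the genes, the range used here runs from the median of the genes' lower limits to the median of their upper limits. It is not an interval of the median itself. The H3K9ac medians stayed within that range, and the H3K9ac counts of regions past 2-fold within 1.5 times, under every alternative run. The H3K27ac median at 2 days became 0.017 when all shared regions were centred on 0 and 0.043 as reads per kb, both above 0. At 7 days it became 0.40 with centring and 0.62 as reads per kb. Over all H3K27ac regions compared the median log2 ratio per kb was 0.14 at 2 days and 0.46 at 7 days. The H4K16ac median at 2 days became -1.42 with reads apportioned to the window and -0.36 as reads per kb, and ATF3 alone turned to 0.19 as reads per kb. At 7 days it became -0.84 when scaled by summed island reads, -0.75 with centring, -0.90 with control reads subtracted and 0.19 over the 2 genes left without the widening. Centring raised the count of H4K16ac regions past 2-fold at 7 days from 2 to 4, 1 higher and 3 lower. After the data had been seen, sums were also taken over regions called at both times, and over regions inside the window in every library that had them. No median moved outside its range, though the H4K16ac medians over regions called at both times rest on fewer genes. Single genes moved more: of 287 values under an alternative, 201 stayed within the counting interval and 45 changed sign. The cause was not tested. H4K16ac values rest on 26 to 539 reads per gene where islands were found, which sets their wide intervals.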
